A study of Arabidopsis thaliana with 30 samples.

Results

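Accessible chromatin of the histone methyltransferase mutant sdg2-4 was compared with that of Col-0 wild type in shoots of 2-week-old Arabidopsis thaliana. Of the 30 ATAC-seq libraries of the study, 4 enter this comparison, namely 2 of sdg2-4 shoot and 2 of Col-0 shoot. Both genotypes were grown at one temperature under long days, without treatment, and the labels give no further allele for either. The study sampled 15 groups of 2 libraries, namely Col-0 root and shoot at 2 weeks, Col-0 stem at 4 weeks, and shoots of 12 mutant genotypes at 2 weeks. The mutants besides sdg2-4 are ros1-4, hda6, gcn5, nrpd1-3, rdd-2, drdd and met1-9, and the doubles of sdg2-4, hda6, gcn5 and nrpd1-3 with ros1-4. ATAC-seq uses the Tn5 transposase to insert adapters into open DNA, and a peak marks a stretch with more inserted fragments than its surroundings. The labels do not say whether libraries of a group came from separate plants, nor how many shoots were pooled. Whole shoots were used, so fewer cells of a type that has a site open and less opening per cell cannot be told apart.

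SDG2, also called ATXR3, places the trimethyl mark on lysine 4 of histone H3. The mark lies over the start of most transcribed genes, where chromatin is also open. Plants without SDG2 are known to be small and largely sterile, with defects in root growth and in pollen. ROS1 is a DNA demethylase that removes methylcytosine, and HDA6 is a histone deacetylase that acts in silencing. GCN5 is a histone acetyltransferase, and NRPD1 is the large subunit of the polymerase that starts small-RNA production for DNA methylation.

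A site is a window of 301 bp around a peak summit, defined from the lists of all 30 libraries. Of 42611 sites in the whole study, 30183 had a peak in at least 1 of the 4 libraries. A site counts as lost when both Col-0 libraries had a peak there and neither sdg2-4 library did, and as gained in the opposite case. The number given for a peak is its fold, the authors' own ratio of fragments at the summit to local background. It describes a peak within its own list, and a site's lower fold is the smaller of the values of its carrying libraries. With 2 libraries against 2, an exact permutation test cannot give a p below 0.33, so no site was tested and all counts and shares below are descriptions.

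Most open sites were common to both genotypes. A peak was present in all 4 libraries at 19259 sites, which is 88.3% of the 21808 sites open in both Col-0 libraries. In sdg2-4, 666 sites were lost and 1091 were gained, or 2.21% and 3.61% of the 30183 sites. A further 9167 sites had a peak in 1 to 3 libraries without meeting either definition. Counted by gene, 588 of 17182 protein-coding genes with a site within 2000 bp had a lost site (3.42%), and 938 had a gained site (5.46%).

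These counts stand against libraries that differed nearly as much within a genotype as between genotypes. The Col-0 libraries shared 81.7% of the sites present in either of them, and the sdg2-4 libraries shared 78.8%. Pairs made of 1 Col-0 and 1 sdg2-4 library shared 76.2% to 79.6%. The sdg2-4 libraries held 24534 and 20679 peaks in replicates 1 and 2, and the Col-0 libraries 20477 and 21873. Cut to equal length, the lists gave 996 lost and 743 gained sites, so the larger side turned. Without sdg2-4 replicate 1 there were 2396 lost and 1418 gained sites, and without sdg2-4 replicate 2 there were 819 and 3154. Leaving out Col-0 replicate 1 gave 1575 and 1608, and leaving out Col-0 replicate 2 gave 1145 and 2379. Numbers in the names of the peaks were 32 and 37 for Col-0 and 55 and 58 for sdg2-4. If they follow the order of preparation, preparation and genotype cannot be told apart.

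The labelled tissue was visible in the lists. Of 30 photosynthesis genes, 28 had a site with a peak in each of the 4 libraries, against 19 and 18 in Col-0 root replicates 1 and 2. Of 10 broadly expressed reference genes, 9 had one in each of these shoot and root libraries. Of 9 root marker genes, 1 and 3 had a peak in Col-0 shoot replicates 1 and 2, 4 and 3 had one in sdg2-4, and 7 had one in each Col-0 root library. Of 9 anther and pollen genes, 3 had a peak in each Col-0 shoot library, and 4 and 3 had one in sdg2-4. The SDG2 gene itself gives no check of the mutation, because a peak list does not show the lesion. Its single site, chr4:8651189-8651489, had a peak in Col-0 replicate 2 (fold 4.33) and in sdg2-4 replicate 1 (2.90), and none in the other library of either genotype. The 262 sites within 500 kb of SDG2 held 4 lost and 10 gained sites, beside 2.21% and 3.61% of all 30183 sites.

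The lost sites with the highest folds lay at the edges of peaks that sdg2-4 kept. At 209 of the 666 lost sites (31.4%), the stretch spanned by the Col-0 peaks also overlapped an sdg2-4 peak outside the window. An overlap in either sdg2-4 library was enough, and how much of the Col-0 peak was kept varied. The gained sites held 133 such edges (12.2%). The summits of the carrying libraries lay outside the window at 136 of the lost and 55 of the gained edges. The remaining 457 lost and 958 gained sites, 1.51% and 3.17% of all sites, were separate, since their peaks touched no peak of the other genotype. This split was chosen after the data were seen. All 12 lost sites of highest lower fold near a gene were edges whose core had a peak in both sdg2-4 libraries, and 9 of the 12 highest gained sites were edges in the same sense.

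The general transcription factor gene TFIIB2 (AT3G10330) had the highest lost edge, chr3:3199088-3199388. The Col-0 peaks reaching it had folds of 11.6 and 13.4 and were 583 and 485 bp wide. In sdg2-4 the peak beside it had folds of 17.2 and 12.6 and widths of 448 and 438 bp. The core was therefore called in all 4 libraries. The difference at the flank was small, and the call ended when a peak had to cover at least 50% of the window.

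Next in rank was the edge at MEE14, a gene named for maternal effect embryo arrest (chr2:6922377-6922677). Its Col-0 peaks had folds of 10.8 and 12, and its core in sdg2-4 had folds of 13.5 and 10.3. At PPC2, which encodes a phosphoenolpyruvate carboxylase, the Col-0 folds were 12.1 and 9.39 and the core in sdg2-4 had 15.5 and 9.21. At the receptor-like protein gene RLP9 the Col-0 peaks were 952 and 921 bp wide, against 498 and 466 bp in sdg2-4. The other lost edges of this rank lay at AT5G06970, ABCG42, AT1G05870, PIL2, AT1G29630, PUB39, SCAMP5 and Tic32-IVa. The calls at MEE14, AT5G06970, PPC2, PIL2, AT1G29630 and PUB39 also ended under the 50% cover rule. ABCG42 encodes an ABC transporter, PUB39 a U-box protein and Tic32-IVa a component of chloroplast protein import.

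At most gained edges described here the neighbouring peak was about as high in Col-0. The highest, at AT5G32440, had folds of 16.7 and 14.5 in sdg2-4 beside a Col-0 core of 16.1 and 15.7. At AT5G53050 (chr5:21514002-21514302) the sdg2-4 peaks had folds of 10.5 and 10.1 and widths of 593 and 608 bp, and the Col-0 core had folds of 9.63 and 10.5 and widths of 443 and 510 bp. MSL6, which encodes a mechanosensitive channel protein, had sdg2-4 peaks of 1524 and 1174 bp against 522 and 877 bp in Col-0. TMO6, a transcription factor gene downstream of the auxin factor MONOPTEROS, had folds of 8.72 and 7.80 in sdg2-4, and the Col-0 core beside it had 7.0 and 6.90. AT2G15020 differed from these, since its sdg2-4 peaks had 12.5 and 8.41 and the Col-0 peak beside it only 4.21 and 3.59. The remaining gained edges lay at AT4G36470, AT1G12120, AT1G01570 and cICDH, the gene of cytosolic isocitrate dehydrogenase. The calls at AT5G53050 and TMO6 ended under the 50% cover rule. Edges extended into the site in many other libraries too, in 6 to 28 of the 30 for the 12 lost sites.

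**Figure D1:**
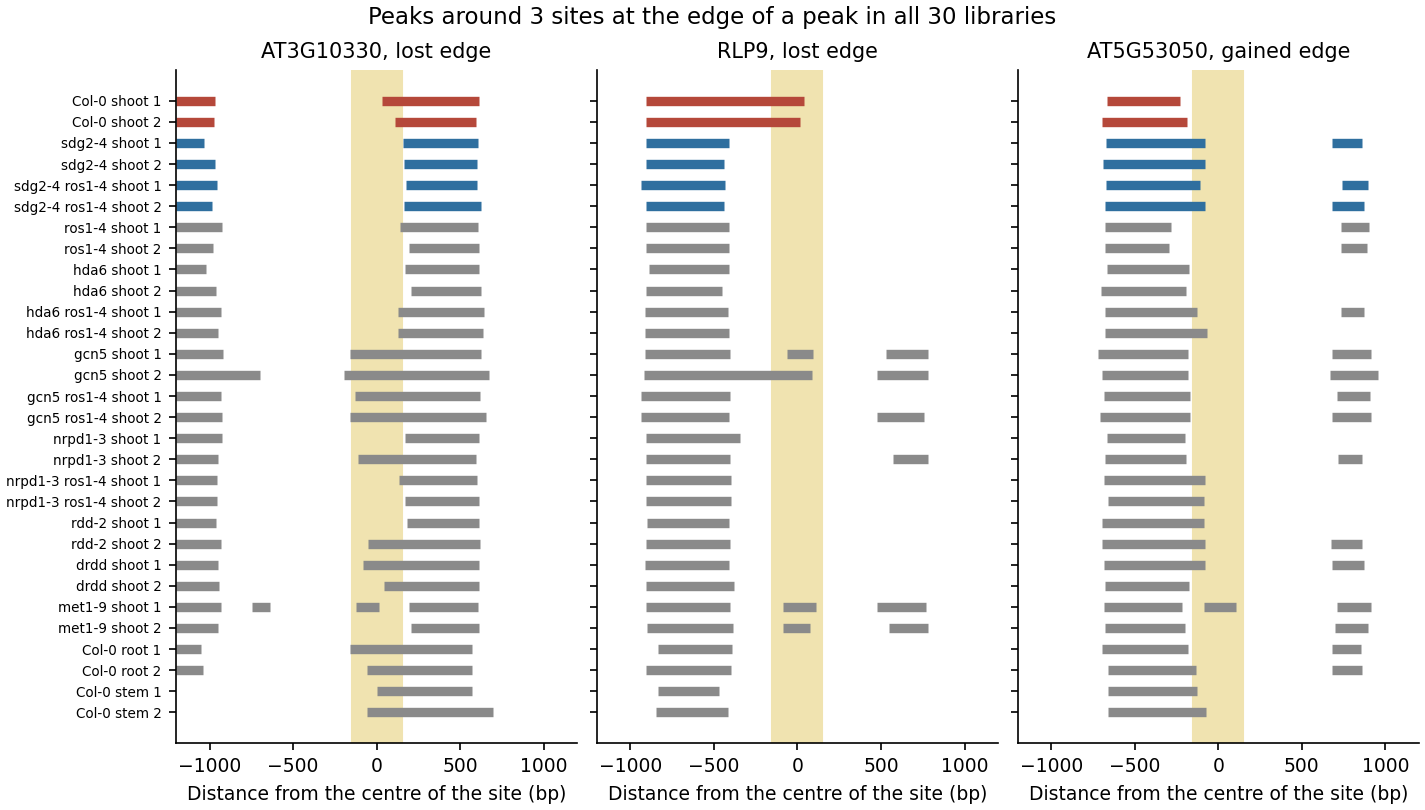
Peaks of all 30 libraries (rows, 15 groups of 2) within 1200 bp of the centre of 3 edge sites, with Col-0 shoot in red, libraries carrying sdg2-4 in blue and others in grey; the shaded band is the site of 301 bp and the x axis is distance in bp. In each panel the neighbouring peak was called in both genotypes, and its reach into the band differed between Col-0 shoot and sdg2-4 shoot. At RLP9 the difference went beyond the band, with Col-0 peaks ending at 42 and 15 bp and sdg2-4 peaks at -412 and -439 bp. At AT5G53050, sdg2-4 replicate 1 also had a peak at 678 to 859 bp that neither Col-0 shoot library had.

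Separate changed sites were weak beside kept sites. The lower fold of the 457 separate lost sites had a median of 2.78 and ran from 1.90 to 4.48. For the 958 separate gained sites the median was 3.22 and the range 1.67 to 9.47, and for the 19259 sites kept in all 4 libraries it was 4.74 with a range of 1.76 to 55.4. Folds of lost sites come from Col-0 lists and those of gained sites from sdg2-4 lists, so their medians are not on one scale. At the kept sites the median fold was 5.27 and 5.47 in the Col-0 libraries and 6.37 and 5.47 in sdg2-4. Where local background was at its lowest level, the lowest fold that could be called was 2.29 and 2.27 in Col-0 and 2.13 and 2.42 in sdg2-4. Lower folds were called where background was higher. At 2 times the highest of these limits, a fold of 4.85, there was no separate lost site, 51 separate gained sites and 9244 kept sites (48.0%). A peak below the calling threshold in the other genotype is not listed, so a missing peak at the weak sites does not show closed chromatin.

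**Figure D2:**
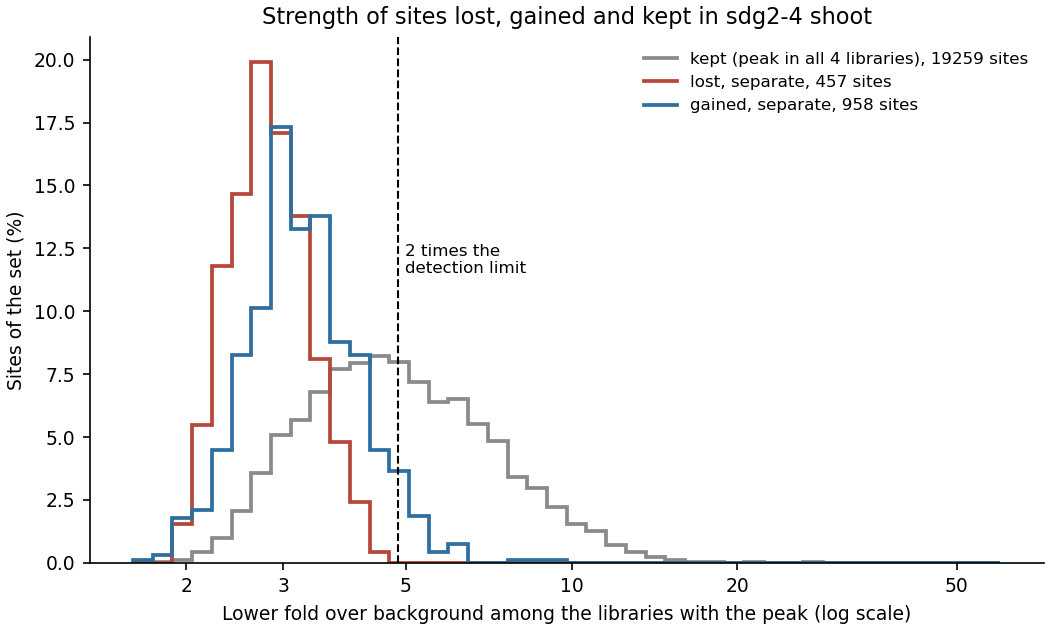
Share of sites (y axis, % of each set) by the lower fold over background among the carrying libraries (x axis, log scale), for separate lost, separate gained and kept sites; the dashed line marks a fold of 4.85. The lost curve ended at 4.48, the gained curve reached 9.47, and 48.0% of kept sites lay at or above the line.

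Separate changed sites lay farther from genes than kept sites. Gene ends, taken as 1000 bp of flank and the first or last 200 bp of a protein-coding gene, held 69.4% of separate lost, 66.9% of separate gained and 79.1% of kept sites. Weak kept sites, with lower folds of 2.17 to 3.88, had 71.5%, close to the share of the lost sites. This range was set from the separate lost sites, and the separate gained sites ran past it to 9.47. The lower fold of a kept site is the smallest of 4 values and that of a changed site of 2. Equal values therefore do not mean equal strength. Gene bodies held 8.10% of separate lost, 12.1% of separate gained and 8.81% of the weak kept sites. Gene-poor windows held 62 of the 958 separate gained sites (6.47%) and 7 of the 457 separate lost sites (1.53%). Such windows lie around centromeres, but the last window of a chromosome is cut short and can also count as gene-poor. The lost sites at J8 and AT1G80930, near the end of chromosome 1, were among the 7. Gene-poor windows held 2.18% of the weak kept sites.

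The highest separate lost site, chr2:18091760-18092060 near AT2G43620, had folds of 4.48 and 4.85 in Col-0. AT2G43620 lay 1784 bp away, and the double mutant sdg2-4 ros1-4 had peaks of 5.30 and 5.58 at the site. On chromosome 1, neighbouring lost sites lay at J8, which encodes a chloroplast J-domain protein, and at AT1G80930. The J8 site had Col-0 folds of 5.39 and 4.01, and the AT1G80930 site had 4.42 and 5.95. Both had peaks in both ros1-4 and both sdg2-4 ros1-4 libraries, so neither absence was carried over to the other mutant with sdg2-4.

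IPMI1, which encodes a subunit of isopropylmalate isomerase, had a lost site at the gene with folds of 4.21 and 4.43 in Col-0. RBK1, a kinase gene named for binding to ROP GTPases, had a lost site with 4.87 and 4.01. Both sites were again present in both sdg2-4 ros1-4 libraries, IPMI1 with 5.63 and 6.17 and RBK1 with 3.98 and 4.39. Of the 12 highest separate lost sites, 8 had a peak in both sdg2-4 ros1-4 libraries and 3 had none in either. Those 3 were at AT2G05590, AT2G27240 and Rap2.6L.

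Rap2.6L encodes a transcription factor of the AP2/ERF family. Its lost site inside the gene, chr5:4272724-4273024, carried peaks of fold 4.08 and 4.14 in Col-0 and of 3.88 and 4.1 in ros1-4, and no peak in the 4 libraries that carry sdg2-4. Neither hda6 library and neither hda6 ros1-4 library had a peak there either. It was present in 20 of the 30 libraries.

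The highest separate gained site lay at AT1G64795 (chr1:24082689-24082989). It had folds of 9.47 and 10.4 in sdg2-4 and of 8.83 and 8.07 in sdg2-4 ros1-4, and no peak in Col-0 or ros1-4 shoot, root or stem. Both hda6 libraries had it too, with 9.84 and 6.77, and it was present in 14 of the 30 libraries. The gained site 1789 bp from AT4G09300 (chr4:5896822-5897122) had folds of 12 and 8.73 in sdg2-4, 5.41 and 4.99 in sdg2-4 ros1-4, and 15.7 and 11.6 in hda6. Neither Col-0 shoot nor ros1-4 had a peak there.

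The 12 highest separate gained sites near a gene included those at SYD and chr31. SYD encodes the SWI/SNF-type remodelling ATPase SPLAYED, and its gained site 105 bp from the gene had folds of 5.98 and 6.63 in sdg2-4. The site was also open in both ros1-4 libraries, with 5.73 and 8.10. The gene chr31, also called CLSY3, encodes a remodeller that recruits RNA polymerase IV for silencing by small RNAs. Its gained site 330 bp from the gene had 6.28 and 6.14 in sdg2-4 and 5.12 and 9.89 in ros1-4, and its call ended under the 50% cover rule.

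Metabolic genes among the 12 highest separate gained sites were BGLU6, which encodes a beta-glucosidase, and the cytochrome P450 gene CYP71B36. The BGLU6 site had folds of 6.15 and 6.41 in sdg2-4 and the CYP71B36 site 5.58 and 6.47. The site at AT2G15000, with 12.7 and 7.76, lay in a gene-poor region and was open in both ros1-4 libraries. The others lay at AT2G15670, AT4G36100, AT1G71730, AT3G27025 and AT3G44713. All 12 had peaks in both sdg2-4 ros1-4 libraries, 8 had them in both hda6 libraries and 6 in both ros1-4 libraries.

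**Figure D3:**
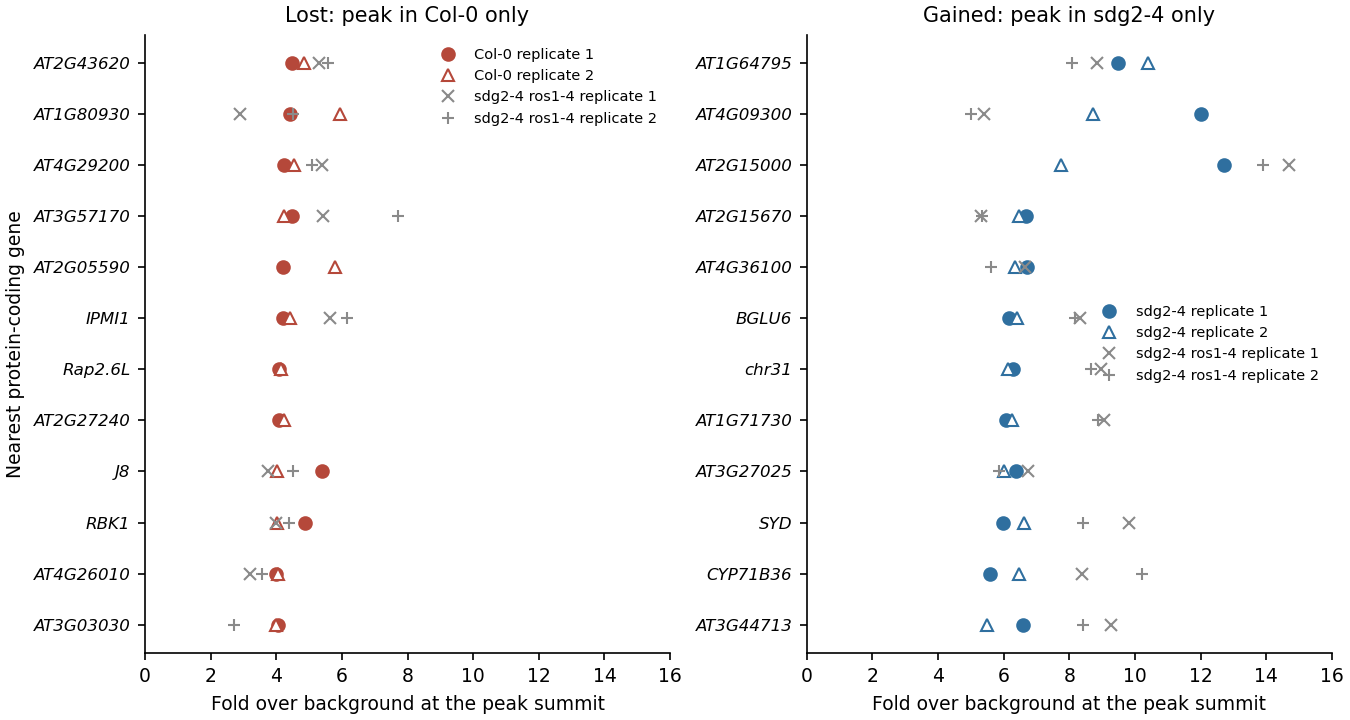
Fold over background at the peak summit (x axis) of the 12 separate lost (left) and 12 separate gained (right) sites of highest lower fold within 2000 bp of a gene (y axis); filled and open symbols are the libraries that define the change and crosses are the sdg2-4 ros1-4 libraries, with no symbol where a library had no peak. All 12 gained sites and 8 of the 12 lost sites had peaks in both sdg2-4 ros1-4 libraries.

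The double mutant offers the same genotype difference in libraries that this comparison did not use. Numbers in the peak names were 26 and 36 for ros1-4 and 64 and 65 for sdg2-4 ros1-4. If they follow the order of preparation, preparation and genotype cannot be told apart here either. Between sdg2-4 ros1-4 and ros1-4, 319 sites were lost (0.984% of 32425 sites) and 2569 were gained (7.92%). Of the sites lost in sdg2-4 against Col-0, 73 were lost there as well, which is 11% of the 666 and 22.9% of the 319. Of the gained sites, 328 were shared, which is 30.1% of the 1091 and 12.8% of the 2569. A site can be gained against ros1-4 only if neither ros1-4 library has a peak there, which held for 456 of the 1091 (41.8%). It can be lost only if both have one, which held for 330 of the 666 (49.5%). With lists of equal length the double mutant comparison gave 818 lost and 1072 gained sites, and the shared sites numbered 185 lost and 191 gained.

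Gains of the other double mutants against ros1-4 also held part of the sdg2-4 gains. The hda6 ros1-4 gains, 9.5% of its sites, held 318 of the sdg2-4 gains (29.1%). The gcn5 ros1-4 gains, 13.1% of its sites, held 284 (26%), and the nrpd1-3 ros1-4 gains, 4.73% of its sites, held 198 (18.1%). Losses made up 0.828%, 0.556% and 3.43% of the sites of hda6 ros1-4, gcn5 ros1-4 and nrpd1-3 ros1-4. They held 5.11%, 2.70% and 18.5% of the 666 lost sites, in the same order, beside the 11% in sdg2-4 ros1-4. These double mutants all use the same ros1-4 libraries as reference, and their peak lists differ in length, so their shares were not tested against each other.

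Among separate sites lost in both sdg2-4 comparisons, AT3G08530 (CHC2, clathrin heavy chain 2) showed the widest pattern. Clathrin heavy chain forms the coat of endocytic vesicles. Its adjoining sites, chr3:2586480-2586780 and chr3:2586794-2587094, were covered by 1 peak in Col-0, with folds of 3.95 and 4.12, and in ros1-4, with 4.26 and 4.86. None of the 4 libraries carrying sdg2-4 had a peak at either site, while all other shoot libraries did, including hda6 with 2.99 and 3.26. The sites had a peak in 25 and 26 of the 30 libraries, and no other site in the study was absent from the sdg2-4 carriers alone among shoots. A neighbouring site at PLC2, a phospholipase C gene, was kept in all 4 libraries with folds of 5.4 and 4.75 in Col-0 and 7.28 and 5.50 in sdg2-4. The Col-0 folds at AT3G08530 stayed under the 4.85 limit.

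WOX5, a homeobox gene of the root quiescent centre, had a lost site 542 bp away, chr3:3526588-3526888. Its folds were 3.82 and 3.80 in Col-0 and 4.63 and 6.0 in ros1-4, with no peak in sdg2-4 or sdg2-4 ros1-4. Neither hda6 library had the peak, but both hda6 ros1-4 libraries did, and 20 of the 30 libraries had it. No peak was called there in Col-0 root. At AT3G52830, the fifth of the separate sites lost in both comparisons, the folds were 3.96 and 3.79 in Col-0 and 3.11 and 4.68 in ros1-4.

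Including edges, the highest sites lost in both comparisons lay nearest to AT5G06970, ADF3, CLE7, RHC1A and AT3G27880, with CLE7 4791 bp away. ADF3 encodes an actin depolymerising factor, CLE7 a small signalling peptide and RHC1A a RING-H2 protein. The ADF3 edge had Col-0 folds of 8.63 and 6.94, and the core beside it had 10.8 and 9.86 in sdg2-4. The CLE7 edge had Col-0 peaks of 789 and 1475 bp. The sdg2-4 peak beside it was 281 bp wide and absent from the other replicate. Among separate sites gained in both, those at AT1G64795 and AT4G09300 ranked highest, followed by sites nearest to AT3G42060, AT1G47765 and AT1G71695. The AT3G42060 site lay 19189 bp from the gene in a gene-poor region. It was outside the stretches marked as having near-identical copies elsewhere, and how uniquely its reads map was not tested.

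**Figure D4:**
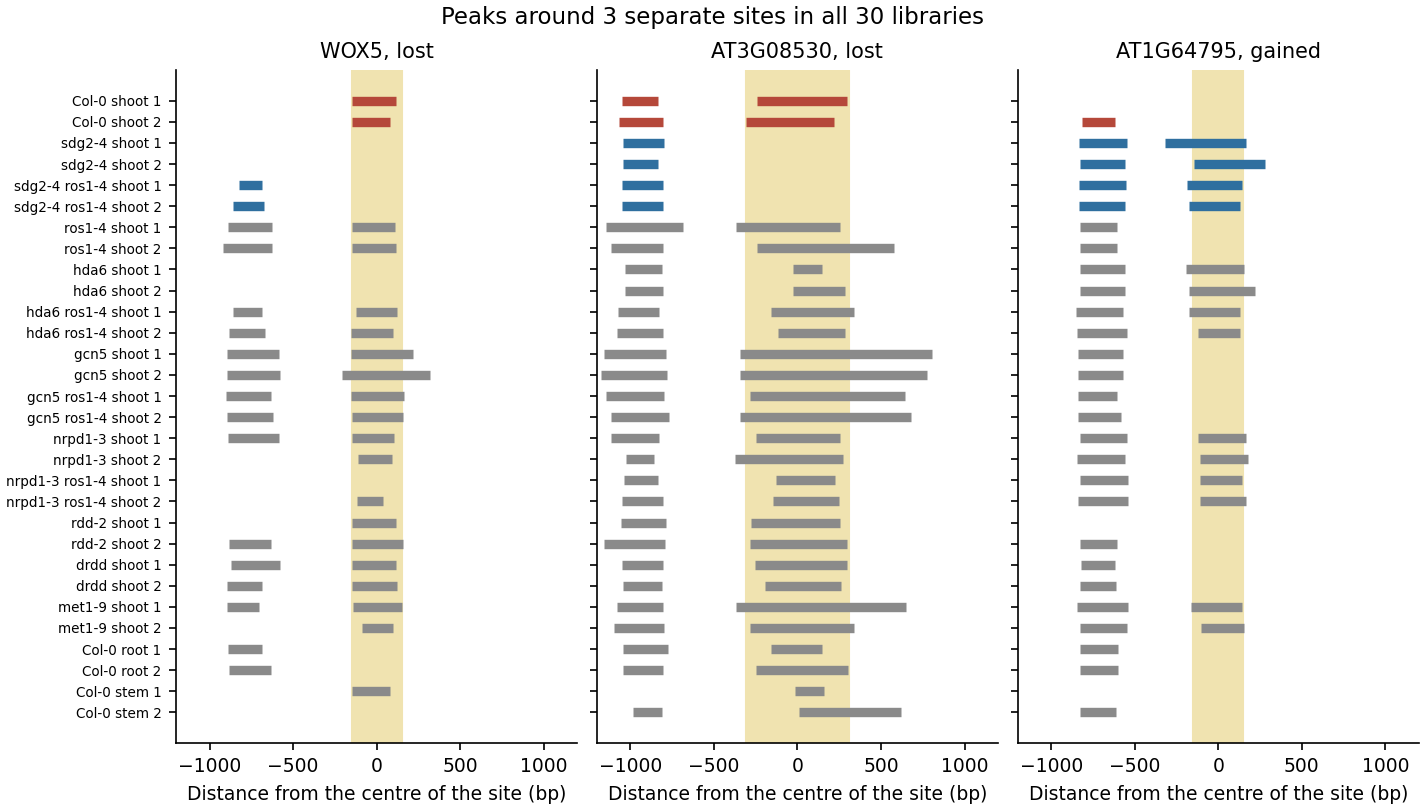
Peaks of all 30 libraries (rows) within 1200 bp of the centre of 3 separate sites, coloured as Col-0 shoot in red, libraries carrying sdg2-4 in blue and others in grey; the x axis is distance in bp and the shaded band is the site, or both adjoining sites at AT3G08530. WOX5 and AT3G08530 had no peak in the band in the 4 sdg2-4 carriers, and AT1G64795 had one in those 4 and none in Col-0 shoot or ros1-4.

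Followed through the other 26 libraries, the changed sites were neither rare nor private to this comparison. A separate lost site had a peak in a median of 16 of the 26 libraries and a separate gained site in a median of 17, against 26 for a kept site. Of the separate gained sites, 832 (86.8%) had a peak in both sdg2-4 ros1-4 libraries, 792 (82.7%) in both hda6 ros1-4 libraries and 327 (34.1%) in both ros1-4 libraries. For the other sites open in both sdg2-4 libraries these shares were 98.2%, 98.7% and 93.0%. Of the separate lost sites, 228 (49.9%) were present in both sdg2-4 ros1-4 libraries, 143 (31.3%) were absent from both, and 427 (93.4%) were present in both gcn5 libraries. The other sites open in both Col-0 libraries were present in both sdg2-4 ros1-4 libraries at 97.8% and in both gcn5 libraries at 99.2%.

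The hda6 libraries, whose peak names carry the numbers 54 and 57 next to those of sdg2-4, held fewer separate lost sites than any group besides sdg2-4 shoot. Only 43 of the 457 separate lost sites (9.41%) had a peak in both hda6 libraries, and 288 (63%) had none in either. The share with none in either library was 60.4% in Col-0 stem and 48.8% in nrpd1-3 ros1-4. Of the other sites open in both Col-0 libraries, 86.7% had a peak in both hda6 libraries. Those other sites include the kept sites, whose folds were higher, so the shares do not compare sites of like strength. The list of hda6 replicate 2, with 17925 peaks, was the shortest of all shoot libraries. Of the separate gained sites, 365 (38.1%) were in both hda6 libraries and 454 (47.4%) in 1 of them. If hda6 was required to have the same state as Col-0 in both libraries, 43 separate lost and 139 separate gained sites remained. The labels name no batch, and whether the numbers in the peak names mark one is not stated.

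**Figure D5:**
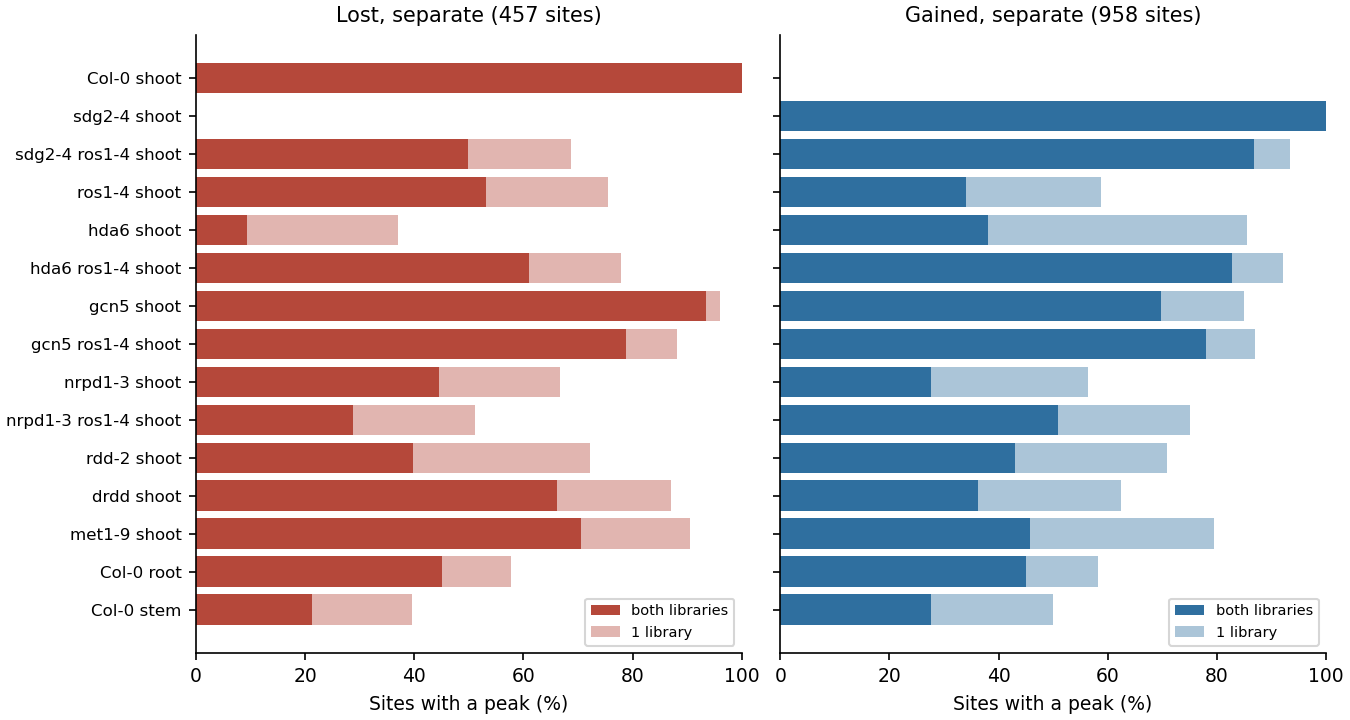
Share of the 457 separate lost (left) and 958 separate gained (right) sites with a peak in both libraries (dark) or in 1 library (pale) of each of the 15 groups (y axis); the x axis is % of sites. Col-0 shoot and sdg2-4 shoot are fixed by the definition, hda6 shoot had 9.41% of the lost sites in both libraries, and sdg2-4 ros1-4 had 86.8% of the gained sites.

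Gene lists chosen for the known roles of SDG2 and of shoot tissue held few changes. Of 217 genes in 13 lists, 179 had a site, and 3 of these (1.68%) had a lost site and 6 (3.35%) a gained one, beside 3.42% and 5.46% of all genes with a site. None of these calls held at 2 times the detection limit. Cutting the lists to equal length ended the calls at CMT3, DML3, NCED3, ABF3, SARD1 and LHCB5, while those at WOX5, ARF7 and GRF1 held. No gene changed among the 17 flowering, 16 circadian clock, 8 H3K4 methylation, 5 H3K4 demethylation, 4 anther and pollen, 5 root marker and 9 reference genes with a site.

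Of the flowering genes with a site 14 of 17, and of the clock genes 14 of 16, had a site with a peak in all 4 libraries. The sites of AG, SEP3, AP3, PRR3 and LUX had a peak in some of the 4 libraries without meeting either definition. A site near FLC, the repressor of flowering, carried peaks of fold 7.24 and 5.80 in Col-0 and of 8.87 and 6.95 in sdg2-4. This site was present in all 30 libraries. A second FLC site, 82 bp from the gene, had no peak in these 4 libraries or in ros1-4. It had folds of 4.21 and 4.51 in sdg2-4 ros1-4 and was present in 11 of the 30 libraries. The site of the clock gene CCA1 had 11.3 and 12.1 in Col-0 and 12.1 and 12.1 in sdg2-4, and that of TOC1 had 11.9 and 14.7 against 15 and 12.5. Among the H3K4 methylation genes, ATX3, which encodes another methyltransferase, carried peaks of fold 9.25 and 11 in Col-0 and of 11.6 and 9.21 in sdg2-4. ASH2R, a core subunit of methyltransferase complexes, had 3.42 and 5.07 against 6.78 and 6.63. JMJ18, an H3K4 demethylase gene, had 11.3 and 11.3 against 13.2 and 12.5.

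Of 14 genes of DNA methylation and demethylation with a site, 2 had a gained site and none a lost one. Among all genes with a site, 5.46% had a gained and 3.42% a lost one, and the list was not tested against them. CMT3, the methyltransferase of CHG sites, had a gained site 16 bp from the gene with folds of 3.09 and 2.99 in sdg2-4, and this site was also open in both ros1-4 libraries. DML3, a demethylase related to ROS1, had a gained site 1521 bp away with 3.79 and 3.56, which was absent from ros1-4 and from sdg2-4 ros1-4. At ROS1 itself, the site chr2:15307771-15308071 was present in all 30 libraries, with 8.56 and 9.92 in Col-0 and 11.8 and 7.44 in sdg2-4. A second site at ROS1 had no peak in Col-0 or sdg2-4 shoot and was present in 7 of the 30 libraries.

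Hormone and stress genes supplied the other gained sites. NCED3, the rate-limiting enzyme gene of abscisic acid synthesis, had a gained site at the gene with folds of 2.95 and 3.01 and another 1719 bp away with 4.22 and 2.46. Both were open in both ros1-4 libraries. ABF3, a transcription factor gene of abscisic acid signalling, had 2.34 and 2.89. SARD1, which controls salicylic acid synthesis in immunity, had 2.66 and 2.51. ARF7, an auxin response factor gene, had 4.13 and 3.40 at a site 1644 bp away. The sites of ABF3, SARD1 and ARF7 had no peak in ros1-4 and had peaks in both sdg2-4 ros1-4 libraries.

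The other lost sites among list genes were at LHCB5 and GRF1. LHCB5 encodes an antenna protein of photosystem II, and its lost site 550 bp away had folds of 3.16 and 3.23 in Col-0. No peak was called there in ros1-4 or sdg2-4 ros1-4. GRF1, a growth-regulating factor gene of leaves, had a lost edge with 4.29 and 4.06 in Col-0, while its core in sdg2-4 had 4.52 and 4.15. In all other shoot libraries this edge was covered.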

How the data were processed

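Peak lists of 30 ATAC-seq libraries were used, grouped by the tissue and genotype in their labels. Per the submitters' processing notes, FastQC, BWA, SAMtools, GATK and MACS2 were used with TAIR10, with no versions. The fold deposited by the authors is a linear ratio of summit pileup to local background, each peak also carries a deposited −log10 p and −log10 q from the peak caller, and the deposited score is the −log10 q multiplied by 10 and truncated. Peaks were called per library. Depth is not given. The background in fragments read back from the fold and −log10 p was 6.51 and 8.38 in Col-0 and 8.93 and 5.28 in sdg2-4, and stands for depth.

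Summits of all lists set 48484 windows of 301 bp. Those with a peak in both libraries of a group are the sites, and an overlap of 1 bp counts as presence. Genes were taken from RefSeq TAIR10.1, which has no strand in the table. A gene-end site lay within 1000 bp outside to 200 bp inside a gene, and gene-poor windows of 100 kb held less than 25% gene sequence. As a check of the build, 68.5% of windows lay outside genes against 40.1% after a shift of 5000 bp. Named were the 12 highest lost and gained sites by lower fold within 2000 bp of a gene, the 3 highest of all, the 5 highest shared with sdg2-4 ros1-4 against ros1-4, and every list gene with a change. The same ranking among separate sites, sites particular to sdg2-4 carriers and loci of known regulators were added after values were seen. The comparison and its gene lists were chosen with earlier results of these data known. Promoter sequences were not used here, so the planned motif counts were not made. Python 3.11.15, pandas 2.3.3, numpy 2.4.6 and bedtools 2.31.1 were used.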

Additional observations from a re-analysis of the deposited data

Results flagged for a closer look

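Opposite changes in the comparisons of sdg2-4 with Col-0 and of sdg2-4 ros1-4 with ros1-4 were found at 48 sites that were lost in the first and gained in the second, and at 1 site that was gained in the first and lost in the second. Every library of a genotype moved one way at these sites by the definition of a change, and the difference was not tested. Between sdg2-4 ros1-4 and ros1-4, 7.92% of all 32425 sites were gained and 0.984% were lost. Of the 666 sites lost against Col-0, 67 were gained in hda6 ros1-4, 106 in gcn5 ros1-4 and 32 in nrpd1-3 ros1-4, each against ros1-4. The 48 sites compare with 73 lost in both comparisons. The highest of them was an edge near MPK3, a mitogen-activated protein kinase gene of immune signalling, with folds of 6.10 and 7.21 in Col-0, no peak in sdg2-4 or ros1-4, and 9.85 and 3.00 in sdg2-4 ros1-4. The core beside it had 8.43 and 9.58 in sdg2-4. Edges at AT4G31430, with 7.11 and 5.91 in Col-0, and AT5G25820, with 5.79 and 6.75, came next. The single site in the other direction lay 2549 bp from HRS1, a transcription factor gene, with 3.59 and 3.39 in sdg2-4 and 3.78 and 3.40 in ros1-4. The calls against Col-0 at these 4 named sites ended when a peak had to cover at least 50% of the window.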

How the results depend on the processing

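The presence counts depended on the length of the lists and on single libraries. With all lists cut to 17315 peaks, separate lost sites numbered 781 and separate gained sites 669, the double mutant comparison gave 818 lost and 1072 gained sites, and the sites shared by both comparisons numbered 185 lost and 191 gained. At 2 times the detection limit, 64 lost and 78 gained sites were left, 0 and 51 of them separate, and the double mutant comparison gave 15 and 377. With hda6 required to side with Col-0, 91 lost and 154 gained sites were left, of which 43 and 139 were separate. Merged peaks of the 4 lists gave 434 lost sites, which moved the count by over 1.5 times, and 930 gained. A −log10 q of at least 5 (590 and 997) and a cover of at least 50% of the window (669 and 955) kept the lost and gained counts within 1.5 times. With each library left out in turn, lost sites ran from 819 to 2396, gained from 1418 to 3154, separate lost from 552 to 1865 and separate gained from 1286 to 2902. Lost sites moved by over 1.5 times without either Col-0 library (1575 without replicate 1 and 1145 without replicate 2) and without sdg2-4 replicate 1 (2396). Gained sites did so without Col-0 replicate 2 (2379) and without sdg2-4 replicate 2 (3154). For the double mutant, lost sites ran from 546 to 715 and gained from 3331 to 4402, and the shared sites from 74 to 116 lost and from 352 to 842 gained. Lost sites of the double mutant moved by over 1.5 times without any of its 4 libraries, gained sites without ros1-4 replicate 2, shared lost sites without Col-0 replicate 1, and shared gained sites without sdg2-4 replicate 2 or ros1-4 replicate 2 (511). Leaving out a library relaxes the rule to 1 library, so counts can only be larger. No paired analysis was possible because sites were called by presence and no test was fitted. Of the 86 named sites, 13 lost their call with lists of equal length, 39 at 2 times the detection limit, 20 at 50% cover and 54 with hda6 siding with Col-0. Depth is known only through the background level, and the lowest fold that can be called moves with local background.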

Other observations

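Sites special to sdg2-4 were few. In all 30 libraries, 2 sites had a peak in the sdg2-4 pair alone, one 2011 bp from CYP96A15, a wax-synthesis P450 gene, with folds of 3.19 and 3.23, and one 1309 bp from VPS24.2, a gene of endosomal sorting, with 2.24 and 2.22. An edge 588 bp from NF-YA7, a subunit gene of the nuclear factor Y complex, was the only site present in the 4 libraries carrying sdg2-4 and in no other, with folds of 3.35 and 2.85 in the single and 2.57 and 2.44 in the double mutant. The opposite pattern among shoot libraries, absence from the sdg2-4 pair alone, held at 16 sites, of which 9 were edges and 7 separate. The separate sites included MUB6, a membrane-anchored ubiquitin-fold gene, with 3.95 and 4.12 in Col-0, the F-box gene FBP7 with 3.76 and 3.86, SAUR36, a small auxin-induced gene, with 3.35 and 4.2, and AT4G29200 with 4.25 and 4.55.

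Near PHV, a leaf polarity gene next to NF-YA7, an edge with folds of 4.60 and 5.14 in Col-0 was lost, while the site beside it was kept with 4.89 and 4.26 in sdg2-4.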
